A study of Mus musculus with 16 samples.

Results

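Immediate early genes were described here by 10 mouse genes measured in pancreatic islets: Fos, Fosb, Jun, Junb, Egr1, Ier2, Ier3, Nr4a1, Btg2 and Zfp36. They were chosen by symbol, and all 10 had a row in both deposited expression tables, out of 16815 genes that the tables share. RNA from islets was sequenced in 16 libraries, 4 in each of 4 groups. Flox mice were homozygous for a B7-H4 (Vtcn1) allele with exon 2 between loxP sites (B7-H4 fl/fl). cKO mice carried the same allele with Cre, in the methods a Rip-Cre transgene (Ins2-cre, rat insulin II promoter) that deletes in β cells, on a C57BL/6J background. Both were fed a normal chow diet, and neither the Cre line nor the age of these mice stands in the sample labels. The other 8 libraries came from mice put on a high-fat diet (HFD) at 6 weeks of age and given virus through the pancreatic duct after 8 weeks of diet. Their labels H-ins2-C and H-ins2-O are not spelled out, and were read from the paper, the series' design text and the Vtcn1 levels. They were taken as control virus (Ctrl here) and an adeno-associated virus with B7-H4-ZSGreen behind the rat Ins2 promoter (OE here). Islets were taken 5 weeks after infusion. The methods describe these mice as Flox mice and the series' design text as wild type. Libraries are named by group and by the number in their label, for example Flox16 or Ctrl5, and the labels do not say whether each came from 1 mouse.

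Immediate early genes are transcribed within minutes of a stimulus without new protein synthesis, because the factors that switch them on (CREB, serum response factor with its ternary complex partners) are already present and only need phosphorylation by kinases such as ERK, protein kinase A or calcium/calmodulin-dependent kinases. Their transcripts are short-lived. In β cells, glucose, calcium entry and cAMP are known inducers of Fos, Egr1 and Nr4a1, and in many tissues enzymatic digestion and handling are known inducers as well. Islets in this study were released with collagenase and picked by hand before RNA extraction.

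For 8 of the 10 members (all but Egr1 and Ier2), RefSeq's promoter table (build GRCm38.p6, the same coordinates as the mm10 build named in the submitters' processing notes) holds the bases before the transcript start. Those of Fos, Junb and Btg2, which hold the letters TGACG and lie wholly before the RefSeq gene, are printed 5′ to 3′ on the gene's strand with TGACG, the core of the cAMP response element, in capitals on either strand. The Fos stretch is chr12:85473640-85473889 on the plus strand, the Junb stretch chr8:84978749-84978998 on the minus strand and the Btg2 stretch chr1:134079156-134079405 on the minus strand, each ending at the base before the start.
Fos: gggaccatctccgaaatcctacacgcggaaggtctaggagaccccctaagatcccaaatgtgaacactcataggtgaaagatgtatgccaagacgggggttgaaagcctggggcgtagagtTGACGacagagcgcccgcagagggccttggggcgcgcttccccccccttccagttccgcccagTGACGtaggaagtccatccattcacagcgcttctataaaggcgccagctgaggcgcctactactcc
Junb: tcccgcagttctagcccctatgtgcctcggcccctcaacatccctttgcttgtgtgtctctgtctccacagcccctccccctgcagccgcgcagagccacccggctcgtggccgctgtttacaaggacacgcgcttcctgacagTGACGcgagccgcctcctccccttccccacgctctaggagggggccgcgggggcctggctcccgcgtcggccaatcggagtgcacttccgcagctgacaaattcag
Btg2: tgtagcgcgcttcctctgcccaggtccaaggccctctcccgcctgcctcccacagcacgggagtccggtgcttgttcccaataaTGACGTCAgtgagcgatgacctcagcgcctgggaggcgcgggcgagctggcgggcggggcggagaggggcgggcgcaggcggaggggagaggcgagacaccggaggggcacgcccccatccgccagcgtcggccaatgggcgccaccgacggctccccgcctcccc
The core began 129 and 66 bases before the start in Fos and 106 bases before it in Junb. In Btg2 overlapping copies on the opposite strands, 166 and 163 bases before the start, made up the full palindromic element TGACGTCA. Searched on both strands over 250 bases, TGACG was present in 5 of 8 members (Fos, Fosb, Junb, Nr4a1 and Btg2) and in 17.8% of all 32851 promoters. Of these, the Fosb stretch reaches into the RefSeq gene and the Nr4a1 stretch lies inside it. TGACGTCA, which contains TGACG, was present in 1 of 8 members and 1.55% of promoters, the AP-1 element TGACTCA in 0 of 8 and 4.46%, and the CArG box bound by serum response factor in 1 of 8 (Zfp36) and 1.47%. These are matches of letters and were not tested as sites. The CArG box was searched only in its strict form, CC and GG around a run of A or T. Boxes farther than 250 bases before the start, and those of Egr1 and Ier2, were not searched.

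Levels were given in FPKM, fragments per kilobase of transcript normalised to the mapped reads, which corrects for gene length and library depth. The chow and HFD tables were normalised separately, so levels from the pair of tables are only set side by side. Relative depth, read from the step that 1 fragment makes in low values, lay between 0.840 and 1.08 of the median of its table. All 10 β-cell markers were detected in every library, and their summed FPKM took 35.4% to 54.7% of the total in Flox, 25.8% to 32.8% in cKO, 4.38% to 55.1% in Ctrl and 46.99% to 51.1% in OE. The summed FPKM of 24 acinar markers (digestive enzymes of the exocrine pancreas) took 8.01% to 37.6% of the total in Flox, 38.4% to 48.4% in cKO, 2.27% to 76.8% in Ctrl and 11.5% to 15.03% in OE. Ctrl2 (59.1%) and Ctrl3 (76.8%) stood apart from the other HFD libraries. In bulk RNA, a smaller share of cells and less RNA per cell cannot be told apart. Vtcn1 itself lay below 0.22 FPKM in every Flox and cKO library, so its level did not check the knockout, whereas in OE it ranged from 40.0 to 128 FPKM against 0.0636 to 0.371 FPKM in Ctrl.

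These genes differed widely between libraries of the same group. Fos, which pairs with Jun proteins to form the AP-1 transcription factor, was at 28.5, 11.8, 119.5 and 79.7 FPKM in the Flox libraries 16, 17, 20 and 21, and at 77.7, 56.3, 23.1 and 44.8 FPKM in cKO8, cKO9, cKO12 and cKO38. In the HFD table it was at 123, 17.4, 20.6 and 156 FPKM in Ctrl1, Ctrl2, Ctrl3 and Ctrl5 and at 24.6, 90.2, 88.3 and 161 FPKM in OE1 to OE4. Flox20, Flox21, Ctrl1 and Ctrl5 were thus high within their groups, Flox16, Flox17, Ctrl2 and Ctrl3 low, and OE1 lay far below the other OE libraries. Fosb, another Fos family protein, was the member with the widest range in the chow table. It was at 1.003, 0.834, 14.5 and 9.98 FPKM in Flox (in the same order), 12.2, 7.44, 1.003 and 6.56 FPKM in cKO, 26.1, 3.09, 4.59 and 19.5 FPKM in Ctrl and 1.34, 12.7, 12.1 and 22.2 FPKM in OE. Its lowest and highest libraries differed 17.4-fold in the chow table and 19.4-fold in the HFD table, and its values in cKO and Flox overlapped, as did those in OE and Ctrl.

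Jun and Junb, the AP-1 partners of the Fos proteins, were high and low in the same Flox, Ctrl and OE libraries. Jun was at 23.1, 22.3, 63.9 and 44.2 FPKM in Flox, 51.9, 49.2, 26.2 and 32.4 FPKM in cKO, 116, 23.6, 30.0 and 131 FPKM in Ctrl and 37.6, 101, 85.0 and 114 FPKM in OE. Junb was at 18.6, 16.3, 81.4 and 69.1 FPKM in Flox but only 25.1, 27.5, 17.3 and 18.7 FPKM in cKO. All cKO values lay within the range of Flox and below both Flox20 and Flox21. In the HFD table Junb was at 50.9, 10.4, 8.02 and 99.3 FPKM in Ctrl and 29.8, 61.8, 49.4 and 60.5 FPKM in OE.

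Egr1, a zinc finger activator, and Nr4a1, an orphan nuclear receptor, differ from the AP-1 proteins in the elements they bind, and they too were low in Flox16, Flox17, Ctrl2, Ctrl3 and OE1. Egr1 was at 12.8, 15.3, 54.5 and 39.4 FPKM in Flox, 42.1, 33.1, 16.6 and 22.6 FPKM in cKO, 70.7, 14.8, 15.52 and 80.8 FPKM in Ctrl and 32.1, 63.9, 57.4 and 75.9 FPKM in OE. Nr4a1 was at 7.46, 6.85, 18.3 and 14.8 FPKM in Flox, 11.7, 8.14, 8.05 and 6.44 FPKM in cKO, 41.4, 4.76, 3.46 and 69.6 FPKM in Ctrl and 17.3, 36.1, 29.7 and 31.7 FPKM in OE. The 20.1-fold ratio of Nr4a1 between Ctrl5 and Ctrl3 was the largest among the members within Ctrl.

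Ier2 and Ier3 are small immediate early proteins, and Ier3 is known to modulate cell survival. Ier2 was at 11.9, 8.77, 20.7 and 15.3 FPKM in Flox, 17.8, 15.1, 8.42 and 13.7 FPKM in cKO, 19.9, 5.19, 7.77 and 34.6 FPKM in Ctrl and 10.2, 21.9, 17.6 and 21.1 FPKM in OE. Ier3 was at 2.16, 3.13, 6.44 and 4.95 FPKM in Flox, 2.64, 3.23, 2.46 and 2.20 FPKM in cKO, 9.23, 2.12, 0.784 and 11.3 FPKM in Ctrl and 4.26, 5.48, 5.17 and 5.79 FPKM in OE. The 4 OE values of Ier3 fell into the gap between the low and the high Ctrl libraries.

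Btg2, an antiproliferative factor, and Zfp36 (tristetraprolin), which binds AU-rich elements and speeds the decay of short-lived mRNAs, belong to the feedback arm of the response. Btg2 was at 35.5, 34.6, 56.5 and 51.2 FPKM in Flox, 38.5, 31.7, 24.1 and 30.3 FPKM in cKO, 25.1, 12.1, 9.97 and 36.98 FPKM in Ctrl and 26.95, 32.4, 29.7 and 27.05 FPKM in OE. It had the smallest ratio of highest to lowest library in each table, 2.34 in chow and 3.71 in HFD. Within cKO its ratio was 1.596, and those of Zfp36 (1.42), Ier3 (1.47) and Junb (1.589) were smaller. Zfp36 was at 18.0, 18.8, 49.8 and 34.2 FPKM in Flox, 23.2, 22.5, 16.5 and 16.3 FPKM in cKO, 45.8, 8.29, 9.20 and 105 FPKM in Ctrl and 26.1, 45.3, 42.8 and 44.5 FPKM in OE. OE1 was low and OE2 to OE4 lay close together.

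**Figure D1:**
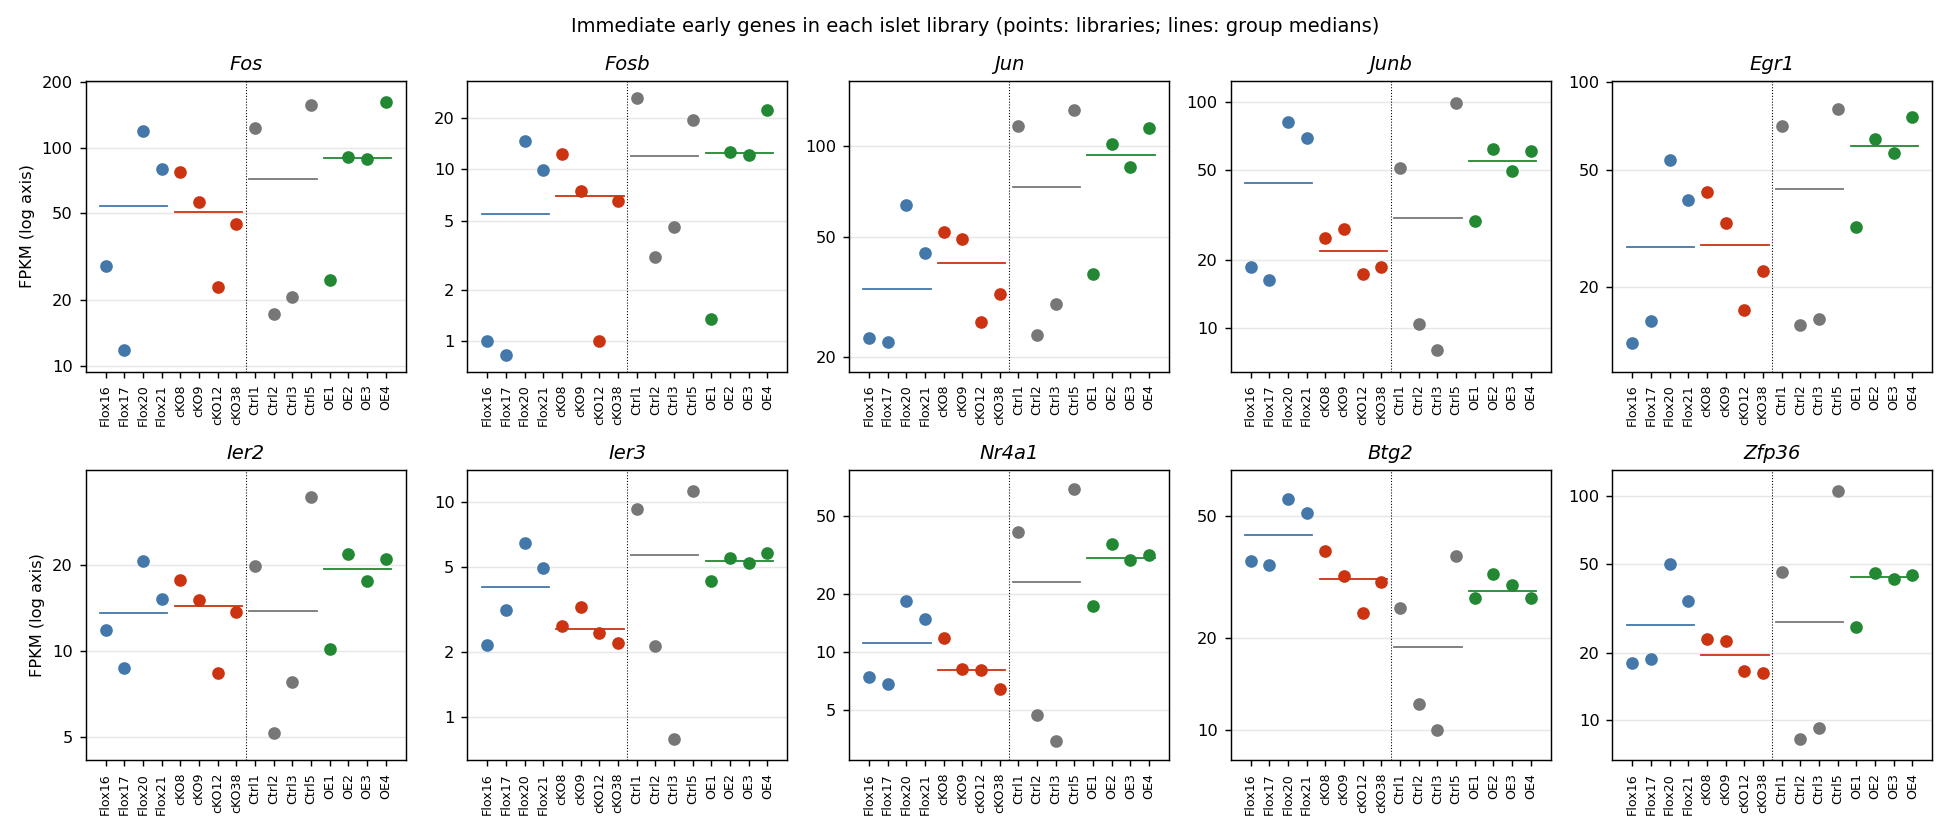
FPKM (log axis) of each immediate early gene in every library, with Flox in blue, cKO in red, Ctrl in grey and OE in green, and a line at each group's median. Values within Flox and within Ctrl fall into a low and a high pair of libraries for most genes, and OE1 lies below the other OE libraries.

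The order of the members, per length, was similar in most libraries. Fos was the most abundant member in 9 of 16 libraries, Jun in 5 and Btg2 in 2, and Ier3 was in the lowest 2 places in all 16. Over the 16 libraries the median was 67.0 FPKM for Fos, 46.7 FPKM for Jun, 36.3 FPKM for Egr1 and 31.0 FPKM for Btg2, then 28.7 FPKM for Junb, 24.6 FPKM for Zfp36, 15.2 FPKM for Ier2, 13.3 FPKM for Nr4a1, 8.71 FPKM for Fosb and 3.75 FPKM for Ier3. Neighbours in this order had overlapping ranges across libraries. Ranks moved most for Btg2, which was the most abundant member in Flox16 and Flox17 and ranged down to place 8 elsewhere.

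The members moved together across libraries. Flox20 was the highest of the 8 chow libraries for 10 of 10 members, and Flox20 and Flox21 were the upper pair of their group for 10 of 10. Among cKO libraries, cKO8 and cKO9 were the upper pair for 10 of 10 members, and cKO12 was the lowest for 7 and cKO38 for 3. Ctrl1 and Ctrl5 were the upper pair of their group for 10 of 10 members, with Ctrl5 the highest of all 8 HFD libraries for 8. OE1 was the lowest OE library for 10 of 10. Median ratios of genes to the table's geometric means, used for scaling below, followed part of this order. They were 1.099, 0.896, 1.298 and 1.373 in Flox16, Flox17, Flox20 and Flox21. In Ctrl1, Ctrl2, Ctrl3 and Ctrl5 they were 1.449, 0.651, 0.338 and 1.471. In cKO the ratio was highest in cKO8 (1.003), with cKO12 (0.898) above cKO9 (0.824). OE1 (1.189) was lowest in OE, against 1.211 to 1.244. Library ranks were not counted over all genes. The summed level of the 10 members was 139 to 486 FPKM in Flox, 144 to 303 FPKM in cKO, 102 to 744 FPKM in Ctrl and 210.3 to 564 FPKM in OE.

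Most members spread more between libraries of a group than the typical gene did. The SD of log2(FPKM + 0.5) exceeded the median SD of all genes tested for 10 of 10 members in Flox, cKO and OE and for 9 of 10 in Ctrl. It lay above the 90th percentile of genes for 8 members in Flox, 6 in cKO, 7 in Ctrl and 8 in OE, and after the median-of-ratios scaling described below the count was 4 in Ctrl and the same in the other groups. Fosb had an SD of 1.83 in Flox (n = 4), 1.34 in cKO (n = 4) and 1.59 in OE (n = 4), and Nr4a1 had one of 2.09 in Ctrl (n = 4). The median gene had an SD of 0.32, 0.17, 0.12 and 0.90 in Flox, cKO, OE and Ctrl, each over 4 libraries. Btg2 was at the 62.8th percentile of genes in Flox, the 83.4th in cKO, the 45.3rd in Ctrl and the 55.0th in OE.

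**Figure D2:**
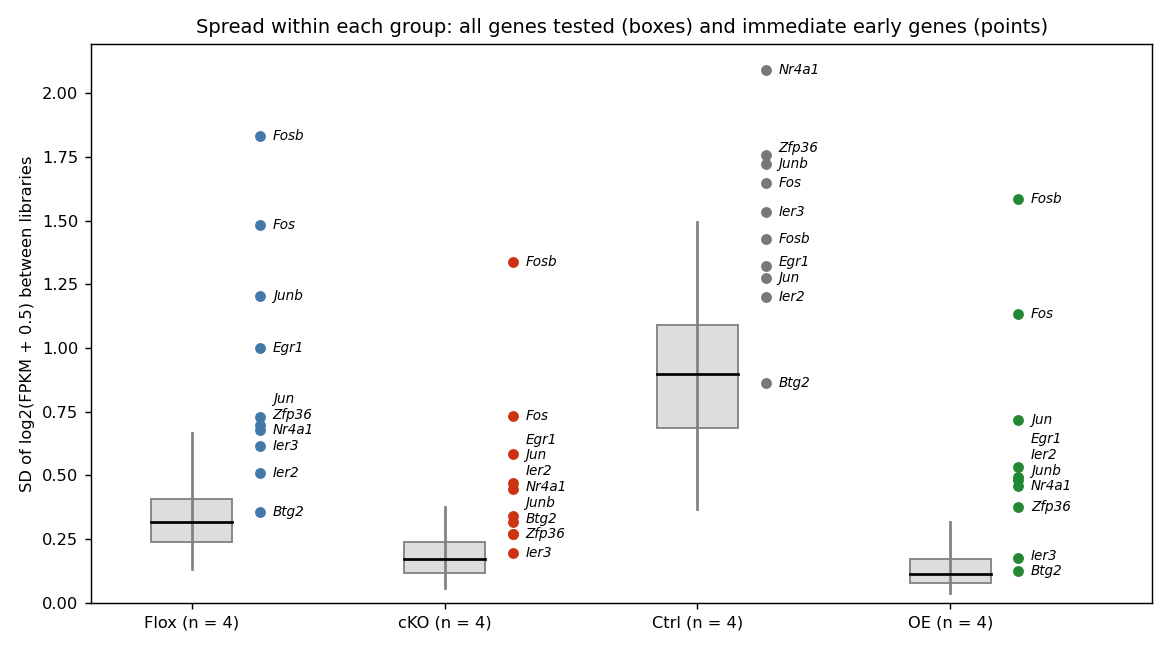
Standard deviation of log2(FPKM + 0.5) between the 4 libraries of each group. Boxes span the middle 25% to 75% of all genes tested with a line at the median, whiskers reach the 5th and 95th percentiles, and points are the immediate early genes, of which 6 to 8 per group lie above the 90th percentile before scaling (4 in Ctrl after it).

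The share of acinar transcripts moved with part of this pattern. In Flox the high libraries Flox20 and Flox21 had acinar shares of 11.5% and 8.01% and the low libraries Flox16 and Flox17 had 29.5% and 37.6%. In Ctrl the high libraries Ctrl1 and Ctrl5 had 5.77% and 2.27%, against 59.1% and 76.8% in Ctrl2 and Ctrl3. Elsewhere Fos and some other members varied at similar acinar shares. OE1 had 15.03% against 11.5% to 13.4% in the other OE libraries, although Fos there was 24.6 FPKM against 88.3 to 161 FPKM. cKO8 (38.4%) and Flox17 (37.6%) had nearly the same share, with Fos at 77.7 and 11.8 FPKM. Btg2 differed less, at 26.95 FPKM in OE1 against 27.05 to 32.4 FPKM in the other OE libraries. It was at 38.5 and 34.6 FPKM in cKO8 and Flox17. The share of β-cell markers ran the other way, 36.6% and 35.4% in Flox16 and Flox17 against 51.9% and 54.7% in Flox20 and Flox21, and 19.1% and 4.38% in Ctrl2 and Ctrl3 against 55.1% and 39.4% in Ctrl1 and Ctrl5. In OE1 it was 47.6%, within the range of the other OE libraries. Alpha-cell markers (6 genes) took 3.48%, 0.456%, 0.11% and 13.6% in Ctrl1, Ctrl2, Ctrl3 and Ctrl5, and delta-cell markers (3 genes) 0.538%, 0.102%, 0.0314% and 2.18%. Endothelial markers (7 genes, 0 of them at 0 in any library) took 0.00677% to 0.0846% of the total in Ctrl, highest in Ctrl5, and macrophage markers (10 genes) 0.00488% to 0.0785%, also highest in Ctrl5. The part of these cell types in the levels of the immediate early genes was not tested.

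**Figure D3:**
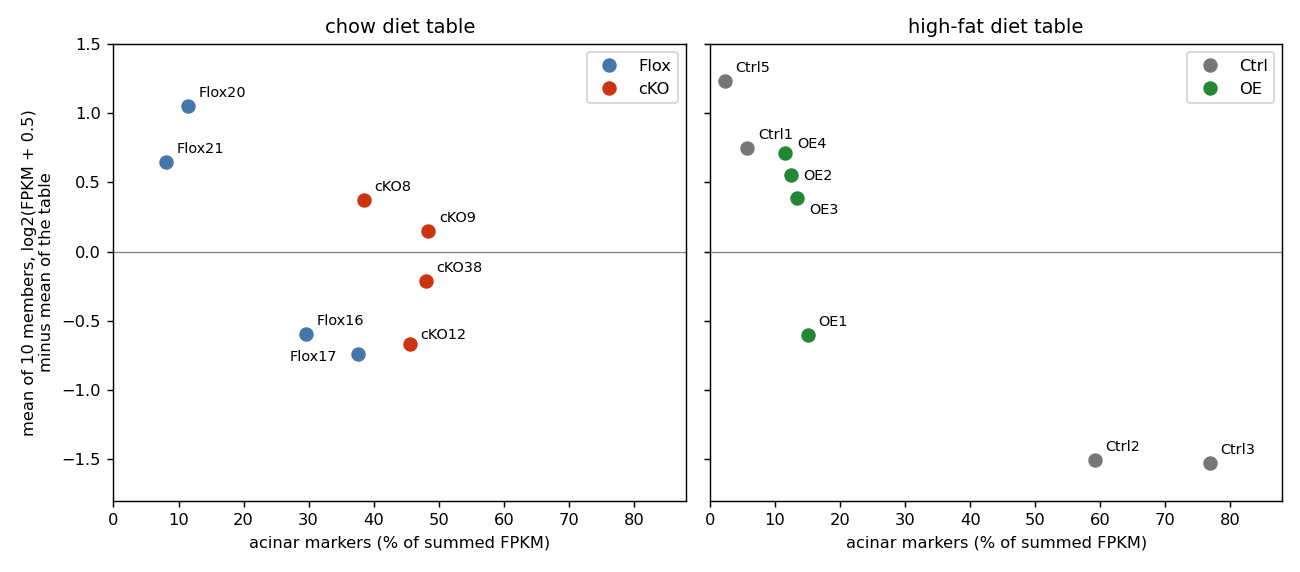
Mean of the 10 immediate early genes on the log2(FPKM + 0.5) scale, centred on the mean of each table, against the acinar share of each library in percent, with 1 point per library coloured by group. Ctrl2 and Ctrl3 have the highest acinar shares and the lowest means, and OE1 lies below the other OE libraries at a similar share.

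Dividing each library by its median ratio to the table's geometric means, which removes a shift shared by most genes, reduced the ratios in Ctrl but not those in OE. The ratio of the highest to the lowest library ranged over the members from 3.71 to 20.1 in Ctrl before and from 1.70 to 6.48 after this scaling. In OE it ranged from 1.20 to 16.5 before and from 1.19 to 16.2 after. The median ratio went from 2.92 to 2.43 in Flox and from 1.90 to 1.84 in cKO. Scaled Fos was at 84.9, 26.7, 61.0 and 106.1 in Ctrl1, Ctrl2, Ctrl3 and Ctrl5, so Ctrl3 was no longer low while Ctrl2 was. OE1 remained the lowest OE library for 9 of 10 members, and Flox20 the highest Flox library for 10 of 10. Other ranks weakened with scaling. Flox20 was then the highest chow library for 7 members instead of 10, Ctrl5 the highest HFD library for 5 instead of 8, and Ctrl1 in the upper pair of its group for 7 instead of 10.

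**Figure D4:**
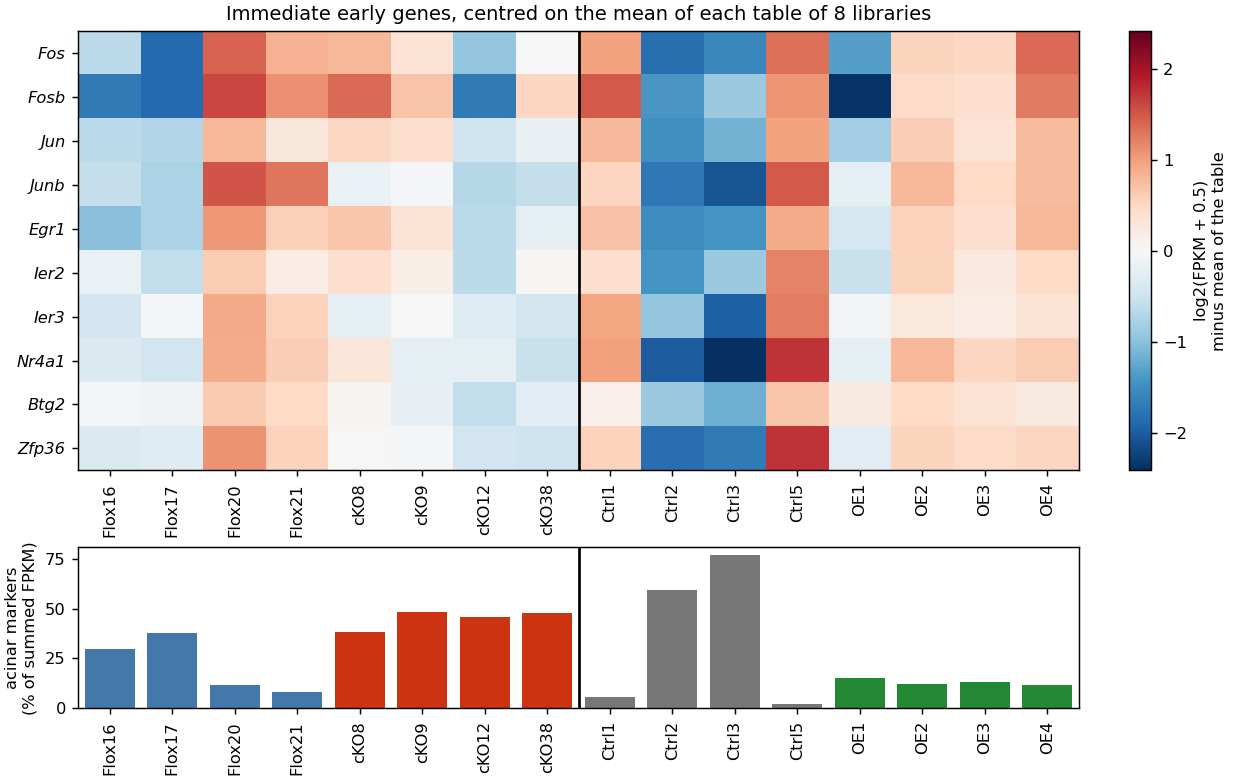
Heat map of log2(FPKM + 0.5) of the immediate early genes in each library minus the gene's mean over the 8 libraries of its table (red above, blue below), with the acinar share of each library in percent as bars beneath. Flox20, Flox21, Ctrl1 and Ctrl5 are above and Ctrl2 and Ctrl3 below the table mean for 10 of 10 genes.

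The comparison of cKO with Flox islets asked what loss of B7-H4 in β cells does to the islet transcriptome. cKO mice also carried Cre, and no library came from mice with Cre alone. Effects of Cre and of B7-H4 loss therefore cannot be told apart here. No immediate early gene passed the test. Group means overlapped widely: Fos was 50.5 ± 22.8 FPKM in cKO and 59.9 ± 49.1 FPKM in Flox (SD, n = 4 each), Egr1 was 28.6 ± 11.3 against 30.5 ± 19.98 FPKM and Jun 39.9 ± 12.6 against 38.4 ± 19.8 FPKM. Junb had the largest difference, 22.2 ± 4.93 FPKM in cKO against 46.3 ± 33.8 FPKM in Flox. Genes were called at an adjusted p under 0.05 (limma on log2(FPKM + 0.5), Benjamini-Hochberg over 11804 genes) with an absolute log2 fold change over 1, and 0 of 10 members were called against 1.31% of all genes. With no minimum fold, 0 of 10 members passed the adjusted p against 13.8% of all genes, and at an unadjusted p under 0.05 there was 1 member against 41.5%. With the acinar share as a covariate that count was 6 members, all higher in cKO, against 8.10% of all genes. The median over the 10 members was then 0.90 against 0.08 over all genes, and 0 passed the adjusted p. The acinar shares do not overlap between the groups (8.01% to 37.6% in Flox, 38.4% to 48.4% in cKO). This fit therefore cannot separate genotype from acinar share. Without the covariate the member was Btg2, with a log2 fold change of -0.49 (SE 0.19, 95% interval -0.89 to -0.09, adjusted p = 0.0714 in limma). The log2 fold change of Junb was -0.72 with an interval from -2.20 to 0.75, that of Fos 0.12 with an interval from -1.85 to 2.08 and that of Fosb 0.44 with one from -2.26 to 3.14. Jun (0.14), Egr1 (0.07), Ier2 (-0.02), Nr4a1 (-0.36), Ier3 (-0.49) and Zfp36 (-0.50) had limma adjusted p-values from 0.14 to 0.957.

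In all, 4 members were higher and 6 lower in cKO, with a median log2 difference of -0.19 against -0.34 over all genes tested. With 1 library left out the members' median ranged from -0.53 (without Flox17) to 0.03 (without Flox20). None of the members had groups that did not overlap, against 16.8% of all genes. The 95% interval stayed within a log2 difference of 1 in both directions for Ier2 (-0.58 to 0.54) and Btg2, and reached past it for the other 8, so for those 8 genes a change of 2-fold or more in at least 1 direction lay within the interval. Median-of-ratios scaling moved the median of all genes by 0.34, to -0.001, and changed the split of all calls from 40 higher and 115 lower to 26 higher and 10 lower. On that scale 6 members were higher and 4 lower, with Ier2 and Nr4a1 changing sign. No member passed the adjusted p, against 2.38% of all genes. The direction of the low-fold members also turned on single libraries of both groups. Without Flox16, and likewise without Flox17, all 10 members were lower in cKO. The number lower was 9 without cKO8, 7 without cKO9, 6 without cKO38 and 5 without Flox20, Flox21 or cKO12. Btg2 passed the adjusted p without Flox16 (-0.59, adjusted p = 0.0345 in limma) and without Flox17 (-0.60, adjusted p = 0.021 in limma), and Ier3 passed it without Flox16 (-0.73, adjusted p = 0.0208 in limma), all with absolute log2 differences under 1. Of all genes tested, 24.2% passed it without Flox16 and 60.0% without Flox17. Over its 17 alternatives the adjusted p of Btg2 ranged from 0.013 to 0.93 and that of Ier3 from 0.0208 to 0.875.

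The comparison of OE with Ctrl islets asked what added B7-H4 in β cells does to islets of HFD-fed mice. Again no immediate early gene passed. Fos was 91.2 ± 55.9 FPKM in OE and 79.2 ± 70.9 FPKM in Ctrl (SD, n = 4 each), Nr4a1 was 28.7 ± 8.05 against 29.8 ± 31.9 FPKM and Zfp36 39.7 ± 9.10 against 42.1 ± 45.5 FPKM. In limma over 12132 genes, 0 of 10 members were called against 0.0330% of all genes (4 genes, the same count with no minimum fold), and 0 of 10 had an unadjusted p under 0.05 against 6.41%. Adjusted p-values of the members in limma ran from 0.591 to 0.93. The log2 fold change was largest for Junb, 0.90 with an interval from -0.44 to 2.24, and for Nr4a1, 0.84 with one from -0.79 to 2.48. With 1 library left out Junb ranged from 0.36 (without Ctrl3) to 1.54 (without Ctrl5) and Nr4a1 from 0.18 (without Ctrl3) to 1.56 (without Ctrl5). Fosb was the only member with a negative value on the deposited scale, -0.12 with an interval from -1.75 to 1.51. For 10 of 10 members the 95% interval included 0 and reached past a log2 difference of 1.

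In this comparison 9 members were higher and 1 lower in OE, with a median log2 difference of 0.58 against 0.44 over all genes. With 1 library left out the members' median ranged from 0.11 (without Ctrl2) to 1.02 (without Ctrl5), and the median of all genes from 0.11 (without Ctrl3) to 0.68 (without Ctrl5). No member had groups that did not overlap, against 6.58% of genes. Scaling moved the median of all genes by 0.44, to -0.01, and on that scale 5 members were higher and 5 lower, with a median of 0.05. Fos, Jun, Ier2 and Ier3 changed sign there. With the acinar share as a covariate 1 member was higher and 9 lower, with a median of -0.35, and 1 member, Ier3, had an unadjusted p under 0.05 against 22.7% of all genes. Without Ctrl2 and Ctrl3, an alternative chosen after seeing the data that leaves 2 Ctrl libraries, 10 of 10 members were lower in OE with a median of -0.74, and 0 were called. Ier3 was then at -0.92 with an adjusted p of 0.0076 in limma, its lowest of 18 alternatives, the highest being 0.998. With those libraries out the median of all genes was -0.21, and 24.3% of all genes passed the adjusted p.

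**Figure D5:**
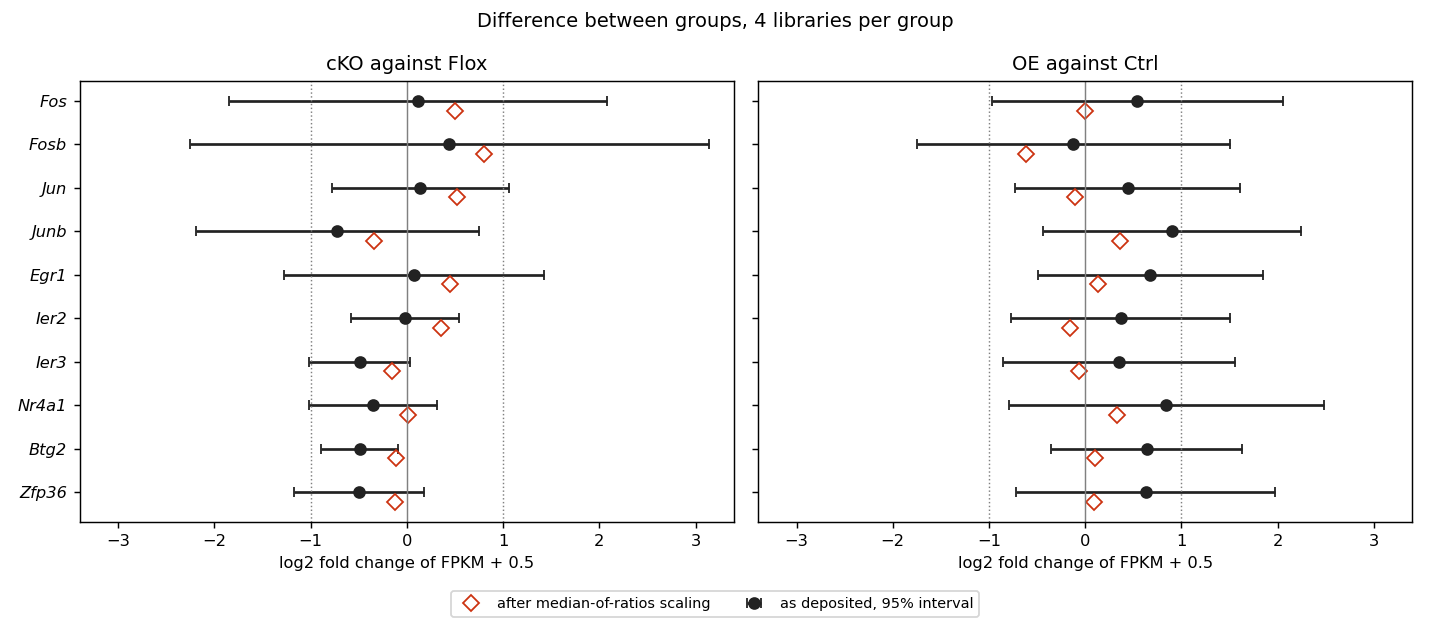
Log2 fold change of each immediate early gene for cKO against Flox and OE against Ctrl, 4 libraries per group. Filled points with 95% intervals are values as deposited and open diamonds values after median-of-ratios scaling; 9 of 10 intervals on the left and 10 of 10 on the right include 0.

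Other immediate early genes were counted from lists written from general knowledge. Of 17 further immediate early transcription factors tested in the chow table, 4 were higher and 13 lower in cKO, 0 passed the adjusted p upwards and 1 downwards (13.8% of all genes passed it), and the median log2 difference was -0.31 against -0.34 over all genes. The one that passed was Nfil3, a bZIP repressor linked to the circadian clock. It was at 6.33, 2.12, 9.75 and 15.4 FPKM in Flox and 1.41, 1.21, 1.08 and 0.928 FPKM in cKO, libraries in the order above, with groups that did not overlap and a log2 fold change of -2.16 (SE 0.53, adjusted p = 0.0441 in limma). Among 28 signalling and feedback genes, 1 passed upwards and 3 downwards, a share near that of all genes, with a median of -0.37. Gadd45g, a stress sensor of the growth arrest family, rose by 0.53 on the log2 scale (72.7 FPKM in Flox, 105 FPKM in cKO, adjusted p = 0.0414 in limma). Btg1, a paralogue of Btg2, fell by 1.18 (37.6 to 15.6 FPKM, adjusted p = 0.0162 in limma), Dusp5, a nuclear ERK phosphatase, fell by 0.75 and Rhob, a short-lived small GTPase, fell by 0.63. After scaling the log2 fold change of Btg1 was -0.81 with an adjusted p of 0.0603 in limma, and Dusp5 and Rhob did not pass either. Nfil3 (-1.83, adjusted p = 0.0468 in limma) and Gadd45g (0.91, adjusted p = 0.0456 in limma) still passed. The signalling and feedback list then held 2 genes that passed upwards and 0 downwards, and the transcription factor list 1 upwards and 1 downwards. On that scale 2.38% of all genes passed.

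Genes that act upstream of the immediate early response were mostly lower, as 86.9% of all genes were on the deposited scale. Of 27 kinases and transcription factors tested, 27 were lower in cKO, 5 of them past the adjusted p (against 13.8% of all genes) and 0 past the fold minimum, with a median of -0.44 against -0.34 over all genes. Creb1, which encodes the factor that binds the cAMP response element, fell by 0.69 (adjusted p = 0.0353 in limma), and Elk4 and Mrtfa, partners of serum response factor, fell by 0.67 and 0.65. After scaling 0 of 27 passed, against 2.38% of all genes, and the median was -0.08. Heat shock genes, which respond to protein damage, were lower in cKO for 10 of 10, with 5 past the adjusted p, again beside 13.8% of all genes, and a median of -0.82. Hsph1 fell by 1.44 (26.6 FPKM in Flox, 8.86 FPKM in cKO), Hsp90aa1 by 1.30 (161 and 61.3 FPKM) and Hspa8 by 1.09 (428 and 193 FPKM). On the scaled values 2 of the 10 passed, both lower, against 2.38% of all genes, with a median of -0.44. Of 6 NF-kB inflammatory targets tested 0 passed, and the smallest p-values belonged to Nfkb1 (-0.49) and Relb (-0.43).

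In OE against Ctrl no gene of these lists passed the adjusted p. The median log2 difference was 0.39 for 18 transcription factors, 0.54 for 30 signalling and feedback genes, 0.63 for 27 upstream genes, 0.18 for 10 heat shock genes and -0.14 for 9 NF-kB targets, against 0.44 over all genes. Klf10, a TGF-beta induced zinc finger factor, had the smallest unadjusted p among the transcription factors. It was at 20.1, 2.53, 1.92 and 14.8 FPKM in Ctrl1, Ctrl2, Ctrl3 and Ctrl5 and at 21.5, 37.4, 32.6 and 33.1 FPKM in OE1 to OE4, with every OE library above every Ctrl library and a log2 difference of 2.16 (adjusted p = 0.591 in limma). Rgs16, a regulator of G protein signalling, had 2.28, Csrnp1 1.59 and the ERK phosphatase gene Dusp4 1.46. In the other lists the values with the smallest p were 0.93 for Elk4, 1.09 for Prkacb, 0.84 for Hsp90aa1, 0.70 for Hspa8, 0.69 for Nfkb1 and -0.49 for Cxcl1.

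The genes whose pattern was most like that of the members were ranked by Pearson's r, over 16 libraries, between a gene's log2(FPKM + 0.5) centred on its table and the mean of the centred members, as a description over 11543 genes. The libraries also differ in acinar share and in the scale of most genes, and r was taken with those differences left in. The 10 highest were Dusp1, Eif3g, Arl4c, Tomm6, Mcl1, Eif5a, Eif1ad, Socs1, Fosl2 and Aste1, with r from 0.914 to 0.936. Dusp1, a phosphatase that inactivates MAP kinases, Mcl1, a survival protein of the Bcl2 family, and Fosl2, a Fos family factor, were on the fixed lists. Dusp1 was at 18.2, 17.7, 33.5 and 24.8 FPKM in Flox and 65.9, 11.9, 9.91 and 105 FPKM in Ctrl, in the same order. The members' own r ranged from 0.836 (Fosb) to 0.979 (Egr1), and these include the gene in the mean.

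This ranking depended on how values were centred. After scaling, Dusp1 (r = 0.83) and Arl4c (r = 0.796) stayed among the 10 highest, while Eif3g, Tomm6, Mcl1 and Eif5a had r of 0.08 or less. Atf3, a bZIP factor of the stress response, then ranked highest (r = 0.884), followed by the inducible heat shock genes Hspa1a (0.853) and Hspa1b (0.852) and the activity-regulated gene Arc (0.837). The rest of these 10 were Paf1 (0.837), Npas4, an activity-regulated factor (0.82), Arhgef3 (0.798) and LOC102634078 (0.775). With values centred on each group instead, Atf3 (0.97), the chaperone gene Dnajb1 (0.97), Rhob (0.965) and Hspa1a (0.952) were the 4 highest. Atf3 was at 1.58, 1.71, 6.74 and 4.01 FPKM in Flox, 17.2, 1.83, 2.26 and 36.8 FPKM in Ctrl and 2.12, 8.65, 6.56 and 7.78 FPKM in OE. Hspa1a was at 3.07, 5.39, 44.0 and 30.4 FPKM in Flox, 183, 33.3, 28.4 and 340.2 FPKM in Ctrl and 24.5, 81.2, 76.6 and 123 FPKM in OE, in the same order. Both were high in Flox20, Flox21, Ctrl1 and Ctrl5 and low in OE1, as the members were. This follows from their choice by r over these same libraries.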

How the data were processed

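Islet RNA of 16 libraries was sequenced on the Illumina platform. The authors deposited FPKM values (fragments per kilobase, normalised to mapped reads) in 2 separately normalised tables of 8 libraries, with 17361 and 17318 genes. The submitters' processing notes name mm10, and the aligner and counter are not given in the sources used here. FPKM tables keep no absolute depth, so no counting interval was computed. No sample column was left unused. Members and gene lists were chosen with earlier results of these data known.

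Each comparison was fitted within its own table with limma 3.58.1 (R 4.3.3) on log2(FPKM + 0.5), over genes averaging 0.5 FPKM or more, with intensity-dependent (trend) and robust moderation of variances, two-sided, with Benjamini-Hochberg adjustment over all genes tested. Fold changes understate changes of low genes. The p-values set each group difference against the spread between these libraries, moderated across genes. Whether each library stands for 1 mouse is not known. The fit was tested on simulated data with noise drawn separately for each gene, without the shift shared by most genes here. It recovered fewer of the added changes for OE against Ctrl than for cKO against Flox. Named were all 10 members, up to 3 genes per direction and fixed list that passed the adjusted p (otherwise the 2 with the smallest p), and the 10 most alike genes. From the other rankings by likeness, the 10 highest after scaling and the 4 highest with values centred on each group were also named. Alternatives were other pseudocounts, filters and scalings, a replicate block, the acinar share as a covariate, 3 libraries per group as in the study's heat maps, and each library left out.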

Additional observations from a re-analysis of the deposited data

Results flagged for a closer look

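Zfp36 in OE1, at 26.1 FPKM, lay apart from the other OE libraries (42.8 to 45.3 FPKM). Its gap to the nearest of them, divided by the range of the group on the log2 scale, was 0.897, above the 95% critical value of Dixon's test for 4 samples. This was 1 of 40 combinations of member and group that were tested, and chance sets apart about 1 in 20.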

How the results depend on the processing

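The number of members called stayed at 0 of 10 in both comparisons under every alternative run, and with no fold minimum it was also 0 in both. The replicate block gave 0 called members in each comparison. Replicate numbers did not pair the samples (correlations of deviations from -0.21 to 0.12). The block put Btg2 in cKO past the adjusted p (-0.49, adjusted p = 0.0451 in limma), along with 23.2% of all genes. With the study's heat map libraries Btg2 was at -0.71 with an adjusted p of 0.013 in limma, where 66.1% of all genes passed. Counts over all genes moved more. For cKO against Flox 155 genes were called, and 84 with a pseudocount of 1, 307 with 0.1, 0 with every gene above 0 FPKM, 36 after scaling, 272 with no trend, 268 with the block, 0 with the acinar share as a covariate, 699 with the heat map libraries and 18 to 507 with 1 library left out. For OE against Ctrl 4 were called, and 10 with every gene above 0 FPKM, 254 with the acinar covariate, and 649 without Ctrl2 and Ctrl3.

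Signs of single members reversed as follows, in log2 fold change, with no reversed value past the adjusted p except Ier3 without Ctrl2 and Ctrl3. For cKO, scaling gave Ier2 0.35 and Nr4a1 0.012. The acinar covariate has no overlap between these groups, so its fit cannot separate it from genotype. It gave Junb 1.05, Ier2 0.74, Ier3 0.24, Nr4a1 0.75, Btg2 0.091 and Zfp36 0.48. It raised Fos to 2.40, Fosb to 3.27, Jun to 1.21 and Egr1 to 1.57 with no sign change, so that 10 of 10 members were higher (median 0.90). The heat map libraries gave Fos -0.73, Fosb -0.50, Jun -0.21 and Egr1 -0.38. For OE, scaling gave Fos -0.0024, Jun -0.11, Ier2 -0.16 and Ier3 -0.063. The acinar covariate, with which 22.7% of all genes and 1 member (Ier3) had an unadjusted p under 0.05, gave Fos -0.45, Jun -0.32, Junb -0.13, Egr1 -0.12, Ier2 -0.30, Ier3 -0.58, Nr4a1 -0.42 and Zfp36 -0.39. Without Ctrl2 and Ctrl3 the values were Fos -0.88, Jun -0.66, Junb -0.55, Egr1 -0.46, Ier2 -0.61, Ier3 -0.92, Nr4a1 -0.94, Btg2 -0.074 and Zfp36 -0.83. Leaving out 1 library gave ranges across 0 for Fos (-0.49 to 0.61), Fosb (-0.11 to 1.08), Jun (-0.069 to 0.43), Egr1 (-0.25 to 0.43) and Ier2 (-0.22 to 0.19) in cKO, and for Fosb (-0.61 to 0.65), Ier2 (-0.0498 to 0.83) and Ier3 (-0.25 to 0.82) in OE. Of the 10 genes most like the members, 2 were shared after scaling and 1 with values centred on each group. The cause of these shifts was not tested. Neither the precision of single FPKM values nor the time from digestion to RNA extraction of each library was given in the sources used here.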

Other observations

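Not every immediate early gene followed the order of libraries that the members showed. Klf10 was at 2.89, 13.3, 5.14 and 5.05 FPKM in Flox (libraries in the order of the report), highest in Flox17, where Fos was lowest, and at 7.41, 15.4, 17.7 and 11.2 FPKM in cKO8, cKO9, cKO12 and cKO38. Rgs16 was at 5.74, 35.4, 14.5 and 8.99 FPKM in Flox, again highest in Flox17. Gadd45g ran the other way in the HFD table, at 33.1, 61.1, 69.0 and 49.1 FPKM in Ctrl1, Ctrl2, Ctrl3 and Ctrl5 and at 28.7 to 39.1 FPKM in OE, so that its 2 highest values were in the Ctrl libraries with the largest acinar share. Klf10, Rgs16 and Gadd45g were picked for these patterns after their values were seen, and the patterns were not tested.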
